A study of Homo sapiens with 12 samples.

Results

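RNA recovered in an immunoprecipitation (IP) with control IgG, the background of the antibody step, was compared with Total RNA of the same cells. The cells were Jurkat, an established human line from a T cell leukaemia. The comparison took 8 of the 12 arrays of the study. There were 4 IgG IP arrays and 4 Total RNA arrays, chosen by their titles, from cells that carried either a control vector or a construct for overexpression of miR-21, with 2 replicates of each. The other 4 arrays held RNA from an IP with an antibody to AGO2 and entered the fits to share 1 estimate of the spread. All cells grew in RPMI with 10% FBS, and all RNA came from proteinase K digestion and phenol-chloroform extraction. Labelling started from 1 ug of Total RNA but from 100 ng of IP RNA, so the fraction and the labelled amount cannot be told apart in any value given here. The labels number the replicates and do not say that they came from separate cultures, so p-values measure only the spread between these samples.

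An IgG IP is run beside a specific IP to measure what sticks to beads, tube and antibody without the antigen. AGO2 is an Argonaute protein that carries miRNAs to their target mRNAs, and enrichment in its IP is usually read against either input RNA or the IgG IP. miR-21 is an abundant miRNA of many leukaemia and lymphoma cells.

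Values are log2 RMA levels of 1 probe set per gene, and a difference is IgG IP minus Total RNA, so that a difference of 1 is a step of 1 on the log2 scale. A matched difference takes the IgG IP and the Total RNA array of 1 construct and 1 replicate number, which gives 4 per gene. Of 19775 named genes, 12824 had a mean over the 12 arrays at or above 4.02, the median of the probe sets, and were tested. A gene was called, and is said to have risen or fallen, at a limma adjusted p under 0.05. Of 25 T cell identity genes, 21 were on the array and all of these passed the filter, among them CD3D, CD3E and LCK. Of the markers of B cells, monocytes, erythroid cells and epithelial cells, 9, 8, 5 and 10 were on the array and 4, 2, 4 and 4 passed. Passing the filter thus does not by itself set cell types apart. None of these 14 was called in the comparison of IgG IP with Total RNA, where 1.92% of all genes were.

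The arrays separated by replicate number. Array means over all probe sets ran from 4.39 to 4.41 in replicate 1 and from 5.26 to 5.27 in replicate 2, so differences were taken within a replicate number. Across genes, the pair of Total RNA arrays of a replicate differed with an SD of 0.215 and 0.198, and the pair of IgG IP arrays with an SD of 0.306 in replicate 1 and 0.619 in replicate 2. In replicate 2 the AGO2 IP array of each construct lay closer to the IgG IP array of that construct (SD 0.184 for the control vector and 0.292 for miR-21) than the IgG IP arrays lay to each other. The corresponding SDs in replicate 1 were 0.828 and 0.791. Counts of genes are therefore also given for a reduced set of arrays, which leaves out 1 array of each of these close pairs, the AGO2 IP array with control vector and the IgG IP array with miR-21 of replicate 2. The labels of the replicate 2 IP arrays were used as given, and whether they hold was not tested. If they do not, the IgG IP and AGO2 IP values of replicate 2 do not stand for the fractions named.

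IgG IP RNA differed from Total RNA at 246 genes, 1.92% of those tested. Of these, 38 (0.296%) were higher and 208 (1.62%) were lower, while the median over all genes was -0.01. Their 4 matched differences had the same sign in all 246. The calls were made on the mean of these differences against the spread between arrays, so this agreement follows largely from the test. Over all genes tested, all 4 were above 0 in 12.5% and below 0 in 19.3%. A limit of size gave the same lean to falls: all 4 matched differences were below -1 in 98 genes (0.764%) and above 1 in 25 (0.195%). The difference was larger in replicate 2 at 188 of the 246, and the spread over all genes was also wider there (SD 0.807, against 0.459 in replicate 1). The replicates differed at 33 of the 246 by the test of that difference, against 17.7% of all genes. In this fit a difference between replicates widens the spread of a gene and makes a call less likely. The smaller share thus follows from how the 246 were chosen and does not show better agreement between replicates. The unadjusted p was under 0.05 in 2524 genes.

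The call count rested on single arrays. With the Total RNA array of replicate 1 left out it was 134 (control vector) or 76 (miR-21), and with the IgG IP array of replicate 1 left out it was 3 or 54 in the same order. For replicate 2 it was 3 with either Total RNA array left out, and 4 or 3 with the IgG IP array left out. Leaving out an AGO2 IP array of either replicate gave 563 (control vector) or 78 (miR-21). The reduced set of arrays gave 51, with 6 higher and 45 lower, and a fit without the replicate block gave 0. The split of 38 higher and 208 lower became 64 and 153 after cyclic loess and 67 and 178 after quantile normalization.

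**Figure D1:**
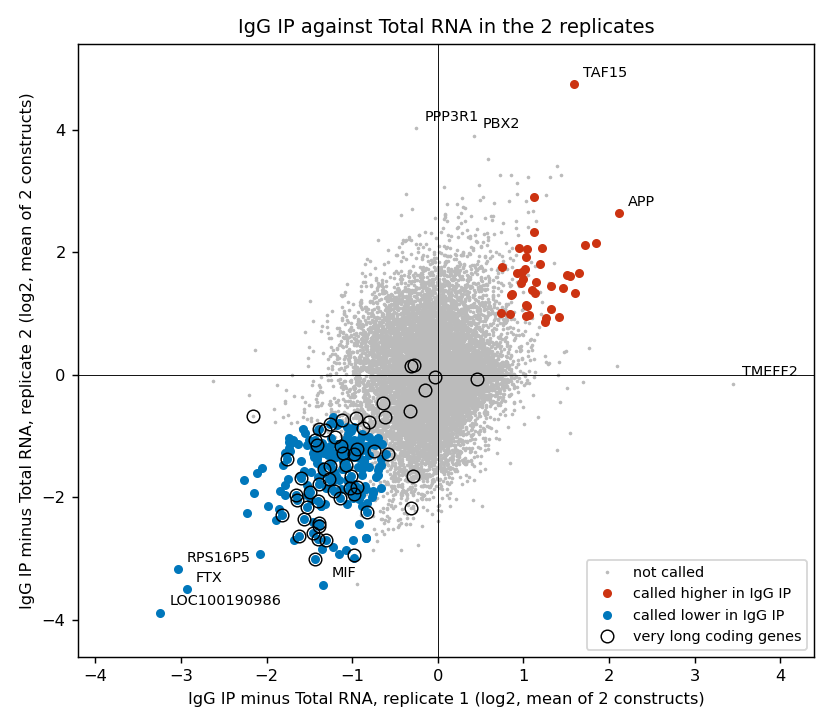
Each point is 1 of 12824 genes, with its IgG IP minus Total RNA difference (log2, mean of both constructs) in replicate 1 on the horizontal axis and in replicate 2 on the vertical axis; red points were called higher, blue points lower, and black rings mark the very long coding genes. Called genes lie in the upper right and lower left corners, most rings sit in the lower left, and PPP3R1, PBX2 and TMEFF2 lie near 0 in 1 replicate and beyond 3 in the other.

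Among the 38 genes that rose, the largest difference was in TAF15, an RNA-binding protein of the nucleus. Its Total RNA levels were 6.53 and 5.95 in replicate 1 and 7.29 and 6.89 in replicate 2, in each case first with the control vector and then with miR-21, against IgG IP levels of 7.75 and 7.92 in replicate 1 and 11.75 and 11.94 in replicate 2. All 4 IgG IP arrays lay above all 4 Total RNA arrays, and those of replicate 2 lay furthest above. The difference was 3.17 ± 0.65 (SE, 4 arrays against 4, adjusted p = 0.0490), made up of 1.60 in replicate 1 and 4.75 in replicate 2, and the replicates differed (adjusted p = 0.00360). This holds for 1 probe set of TAF15 alone. Probe sets were chosen by their mean over all 12 arrays, IP arrays included, which favours those that are high in IP. A second probe set, at 6.75 and 6.90 in Total RNA of replicate 1 and 9.19 and 8.94 in that of replicate 2, was at 3.68, 4.41, 6.59 and 6.08 in the matching IgG IP arrays. This second probe set lay above the chosen one in every Total RNA array. It fell by 2.75 (adjusted p = 0.00730), and another, also above the limit of 4.02, fell by 1.497 (adjusted p = 0.0323). The TAF15 probe sets thus moved in opposite directions between the same arrays, and a direction for the gene as a whole cannot be given.

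APP, the amyloid precursor protein, stood at 7.82 and 7.14 in Total RNA of replicate 1 and 7.65 and 7.35 in that of replicate 2. In IgG IP it stood at 9.53 and 9.67 in replicate 1 and 10.16 and 10.11 in replicate 2, so the groups did not overlap. It rose by 2.37 ± 0.27 (adjusted p = 0.00815), to a similar extent in replicate 1 (2.11) and replicate 2 (2.64). A second APP probe set gave 0.53 (adjusted p = 0.21) and another gave -0.17, so this rise too came from 1 probe set.

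LMNB1, which encodes lamin B1 of the nuclear lamina, had Total RNA levels of 8.995, 8.37, 8.51 and 8.21 and IgG IP levels of 9.86, 9.76, 11.40 and 11.13, in the order control vector and miR-21 of replicate 1, then of replicate 2. It rose by 2.02 ± 0.36 (adjusted p = 0.0298), by 1.12 in replicate 1 and 2.91 in replicate 2. NPM3, a nucleophosmin family histone chaperone, was at 8.63, 7.35, 8.31 and 8.17 in Total RNA and at 9.95, 9.73, 10.58 and 10.21 in IgG IP in the same order. The groups were apart in both genes. NPM3 rose by 2.004 ± 0.31, and its replicates were alike, at 1.85 and 2.16.

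Further rises were smaller. PIN4, a parvulin-type prolyl isomerase, rose by 1.92 ± 0.25. ACYP1, an acylphosphatase, rose by 1.65 ± 0.16 with nearly the same value in replicate 1 (1.64) and replicate 2 (1.66). AP1S1, the small subunit of a clathrin adaptor, rose by 1.64 ± 0.23 and SEM1, a small subunit of the proteasome lid, by 1.57 ± 0.25. SDHC, the cytochrome b subunit of succinate dehydrogenase, rose by 1.73 ± 0.29, and its other 6 probe sets ran from 1.80 to -0.59. NDUFAF2, an assembly factor of complex I, rose by 1.58 ± 0.21, RILPL2, a Rab effector relative, by 1.55 ± 0.32, and KIFC1, a minus-end kinesin of the spindle, by 1.51 ± 0.29. Another PIN4 probe set rose by 2.05, while 2 more gave 1.32 and -0.42 and were not called. The other AP1S1 probe sets gave 1.75 and 1.47 and missed the threshold (adjusted p = 0.0644 and 0.120).

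The falls were led by transcripts that do not encode proteins. The noncoding gene LOC100190986 was at 6.05 and 6.03 in Total RNA of replicate 1 and at 8.17 and 8.18 in that of replicate 2. Its IgG IP levels were 2.77, 2.83, 4.52 and 4.08, below every Total RNA array, and it fell by 3.56 ± 0.39 (adjusted p = 0.00791). FTX, a long noncoding RNA from the X-inactivation centre, went from 5.89, 6.07, 7.64 and 7.49 in Total RNA to 3.18, 2.91, 4.21 and 3.93 in IgG IP. It fell by 3.21 ± 0.22 (adjusted p = 0.000982), with -2.93 in replicate 1 and -3.50 in replicate 2. In both genes the IgG IP levels of replicate 1 lay below the limit of 4.02 used to test a gene, and those of replicate 2 lay close to it.

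RPS16P5, a pseudogene of ribosomal protein S16, was at 7.12, 7.49, 9.43 and 9.16 in Total RNA and at 4.14, 4.402, 6.41 and 5.84 in IgG IP. It fell by 3.10 ± 0.22 (adjusted p = 0.000982), and its replicates gave nearly the same value, -3.04 and -3.17. A pseudogene shares sequence with its parent, and its signal is uncertain for that reason. LINC01355 fell by 2.50 ± 0.22, LOC285097 by 2.24 ± 0.27 and GABPB1-AS1, antisense to the transcription factor gene GABPB1, by 2.13 ± 0.30. Of the other probe sets of GABPB1-AS1 above the limit, 3 fell further (-3.55, -3.35 and -3.28) and 1 gave -0.31. Of the 208 genes that fell, 21 had at least 1 IgG IP array below 4.02 and 0 had every IgG IP array there. This limit was the same for both replicates, although array levels were higher in replicate 2. The 0 thus does not show that IgG IP levels stayed above the low range of each array. Every IgG IP level of FTX, for example, lay below the median of its own array.

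Noncoding genes as a class had a median close to that of all genes. RefSeq names 735 of the tested genes as long noncoding RNAs, and 1 was called higher and 16 lower (2.18%, against 1.62% of all genes); their median was 0.06. The list of 528 long noncoding RNAs chosen by name had 1 higher and 11 lower and a median of 0.07. MALAT1, an abundant nuclear RNA, was at 8.59, 9.39, 12.65 and 12.44 in Total RNA and at 8.33, 7.86, 12.28 and 11.83 in IgG IP. Its difference of -0.69 ± 0.64 was not called (adjusted p = 0.603), and its levels were set far more by replicate number than by fraction.

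Among protein-coding genes, MIF, a secreted inflammatory cytokine, had Total RNA levels of 12.50, 12.51, 13.06 and 12.92 and IgG IP levels of 11.06, 11.27, 9.52 and 9.62. It fell by 2.38 ± 0.39 (adjusted p = 0.0229), by 1.34 in replicate 1 and by 3.42 in replicate 2, and these differed (adjusted p = 0.00404). Its IgG IP arrays lay below all Total RNA arrays, and furthest in replicate 2. ANKRD36B fell by 2.19 ± 0.24, TAF1D, a subunit of the RNA polymerase I selectivity factor, by 2.10 ± 0.32, and the zinc finger gene ZNF573 by 2.06 ± 0.20. The ubiquitin ligases UBR4 and HERC2 complete the 12 largest falls and belong to the group described next.

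**Figure D2:**
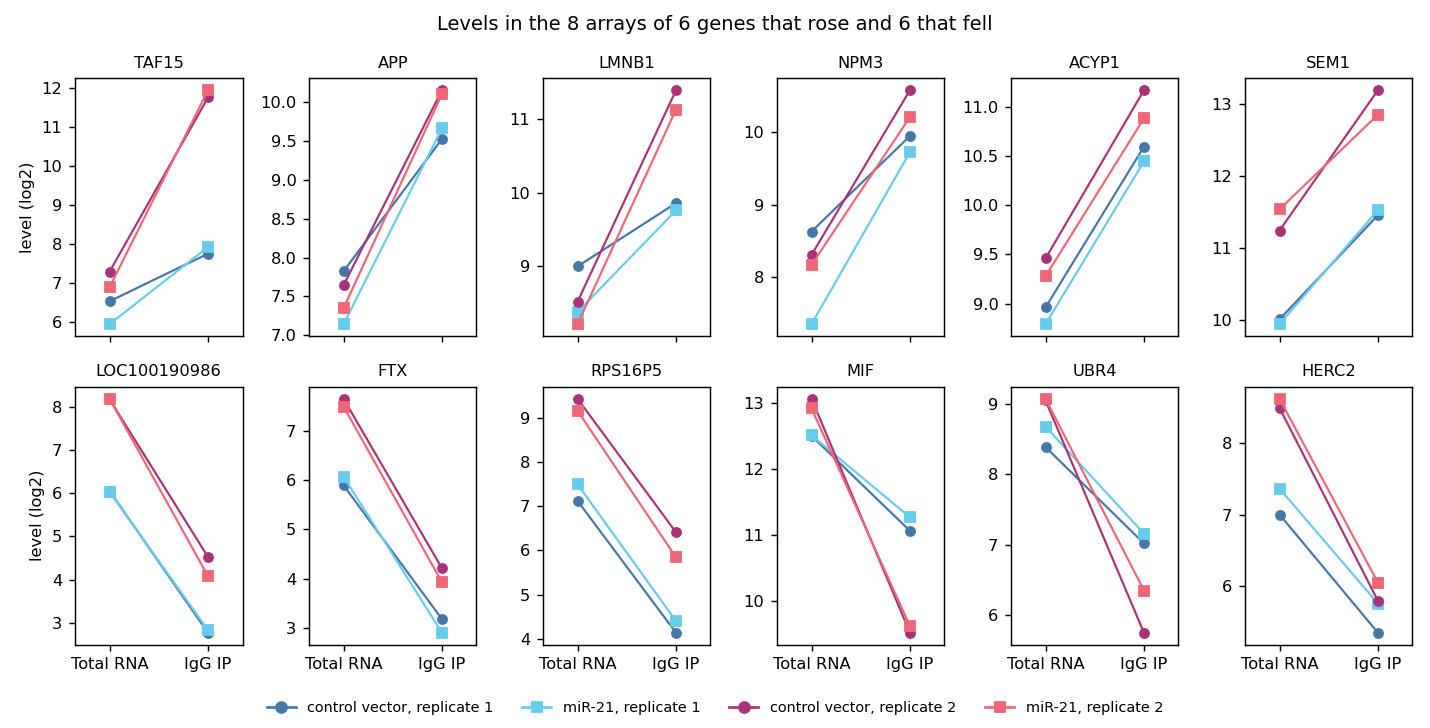
Log2 level in Total RNA and in IgG IP for 6 genes that rose (upper row) and 6 that fell (lower row); each line joins the matched arrays of 1 construct and 1 replicate number, and each panel has its own vertical scale. All 4 lines run the same way in every panel, which the choice of genes required. Those of TAF15, LMNB1, MIF and UBR4 are steeper in replicate 2.

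The most uniform group of falls was that of genes with very long coding sequences. The list of 65 such genes, put together from knowledge of protein size since no file here gives transcript lengths, had 59 on the array and 56 tested. Like the other lists, it was chosen with earlier results of these data known. The shares below thus describe the list and are not a test of a group named beforehand. Of these 56, 34 fell and 0 rose (60.7% lower, against 1.62% of all genes tested), and the median was -1.35, against -0.01 over all genes. In 50 of the 56 all 4 matched differences were below 0, against 19.3% of all genes. The medians of the matched differences were -1.25 and -1.19 in replicate 1 and -1.42 and -1.57 in replicate 2, for control vector and miR-21. In the reduced set of arrays the median was -1.29, and under the 3 other scalings it ran from -1.35 to -1.27.

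UBR4, a ligase of the N-degron pathway, was at 8.38, 8.67, 9.04 and 9.07 in Total RNA and at 7.02, 7.16, 5.75 and 6.35 in IgG IP, and fell by 2.22 ± 0.36 (adjusted p = 0.0229). Its other 2 probe sets above the limit, both dim, gave -0.0028 and 0.36. HERC2, a ligase of the DNA damage response, was at 7.001, 7.36, 8.49 and 8.61 in Total RNA and at 5.35, 5.76, 5.80 and 6.05 in IgG IP, and fell by 2.13 ± 0.30. PRKDC, the catalytic subunit of the DNA-dependent protein kinase, was at 9.64, 10.03, 10.95 and 10.96 in Total RNA and at 7.91, 8.12, 8.85 and 8.49 in IgG IP. In all of these genes no IgG IP array reached the Total RNA array of its own pair. PRKDC fell by 2.06 ± 0.26, with -1.83 in replicate 1 and -2.29 in replicate 2. MKI67, the proliferation antigen Ki-67, fell by 2.04 ± 0.28, MDN1, an ATPase of ribosome assembly, by 2.01 ± 0.26, and SPEN, a transcriptional corepressor, by 1.999 ± 0.30.

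Several protein families had more than 1 member in this list. HERC1 fell by 1.95, VPS13B by 1.85, VPS13C by 1.56 and VPS13A by 1.13, the last 3 being lipid transfer proteins. The spectrin SPTBN1 fell by 1.84, and its partner SPTAN1 gave -1.96 without passing the test (adjusted p = 0.0644). The microtubule-linked genes DYNC1H1, a dynein heavy chain, and MACF1, a spectraplakin, fell by 1.81 and 1.70. The kinetochore genes CENPE and CENPF fell by 1.90 and 1.64, and the DNA damage kinase ATM by 1.56. CENPE, CENPF and TOP2A were also the 3 called members of the 30 mitosis genes tested, whose median was -0.24. All 3 were lower, against 1.62% of all genes.

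Some very long genes lay near 0. NBEAL1 was at 0.20, ANKRD11 at -0.03, NBEAL2 at -0.06, CHD8 at -0.09 and HUWE1 at -0.20. For HUWE1, a large ubiquitin ligase, the Total RNA levels of 12.88, 13.04, 13.69 and 13.78 lay close to the IgG IP levels of 12.83, 12.79, 13.61 and 13.37. KMT2B, AKAP13, CHD8, NBEAL2, ANKRD11 and NBEAL1 were the 6 members with at least 1 matched difference at or above 0. Other probe sets of the 56 genes gave the same direction where they were measurable: 85 of 92 probe sets (92.4%) at or above 4.02 shared the sign of the gene's chosen probe set, with a median of -1.17, against 40 of 84 (47.6%) of those below 4.02. The same comparison over the called genes gave 242 of 275 (88.0%) for those that fell and 16 of 27 (59.3%) for those that rose. The chosen probe sets had the highest mean over arrays that include the IP arrays, so these shares are not free of that choice.

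In single replicates 34 of the 56 were called lower in replicate 1, where 3.07% of all genes were, and 49 in replicate 2, where 17.9% were. In each replicate 0 were called higher. The replicates differed at 11 of the 56 members, a share near that of all genes (17.7%). The fall was larger in replicate 2 at 10 of these, which were UBR4, MKI67, MDN1, SPEN, SPTAN1, MYCBP2, TRRAP, USP9X, GCN1 and DOCK2. The widest gap was in SPTAN1, at -0.98 in replicate 1 and -2.94 in replicate 2. The exception was CHD9, a chromatin remodeller, at -2.16 in replicate 1 and -0.67 in replicate 2.

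**Figure D3:**
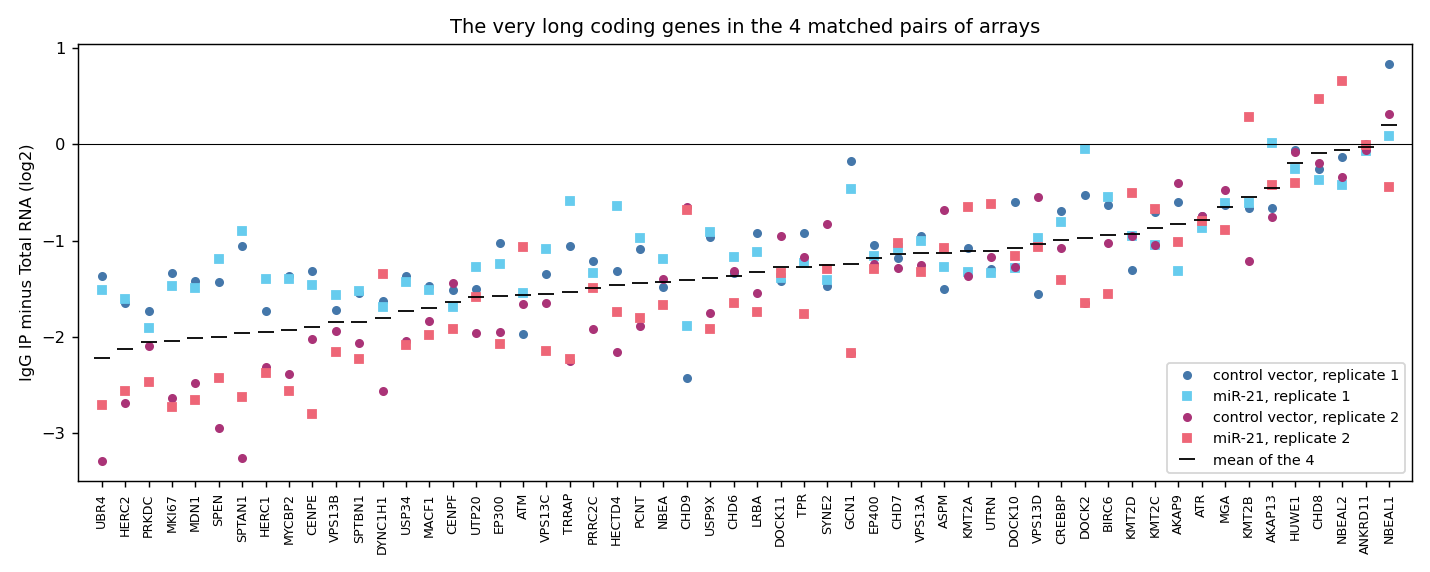
IgG IP minus Total RNA (log2) for the 56 very long coding genes tested, ordered by their mean difference (black dashes); coloured points are the 4 matched pairs of arrays. The points of 50 genes lie wholly below 0, and replicate 2 reaches furthest down at the left of the plot.

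Messages of the cytosolic ribosome, which are short and abundant, were lower mainly in replicate 2. Of 53 ribosomal protein genes tested, 1 rose and 1 fell over both replicates, with a median of -0.37, which was -0.62 after cyclic loess. RPL12, of the large subunit, was the member that fell. It was at 12.59, 12.57, 13.72 and 13.71 in Total RNA and at 11.69, 11.93, 11.82 and 11.62 in IgG IP (difference -1.38 ± 0.27, adjusted p = 0.0385). RPL36AL, a retrocopy-derived paralogue of RPL36A, rose from 11.83, 11.80, 12.79 and 12.72 to 12.88, 12.88, 13.81 and 13.66 (difference 1.02 ± 0.18, adjusted p = 0.0298). These genes moved against each other in all 4 matched pairs. Paralogues and pseudogenes can share probes in this family, so single members are uncertain.

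The list median was -0.09 in replicate 1, with 3 called higher and 1 lower, and -0.63 in replicate 2, with 1 higher and 29 lower. Background in replicate 2 was high: 15.7% of all genes were called higher and 17.9% lower there, against 54.7% of this list lower. The difference between replicates was called in 15 members, all lower in replicate 2, where 7.22% of all genes were called lower by that test.

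Ribosomal protein mRNAs are known for a run of pyrimidines at the first transcribed base, the terminal oligopyrimidine tract through which their translation is regulated. The windows of 4 members from RefSeq (GRCh38.p14) are shown because they differ in response; each gives 10 bases before and 20 from the annotated start, 5′ to 3′ on the strand of the gene, with the unbroken pyrimidine run from the first transcribed base in capitals. RPL12 lies at chr9:127451387-127451416 on the minus strand, RPS19 at chr19:41860245-41860274 on the plus strand, RPL14 at chr3:40457329-40457358 on the plus strand and RPL36AL at chr14:49620607-49620636 on the minus strand.
RPL12: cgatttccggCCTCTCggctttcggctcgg
RPS19: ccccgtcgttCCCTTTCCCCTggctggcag
RPL14: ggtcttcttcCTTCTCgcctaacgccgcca
RPL36AL: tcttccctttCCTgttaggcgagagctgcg
RPS19, with the longest of these runs at 11 bases, gave -0.54 in replicate 1 and -1.29 in replicate 2. RPL14, with a run of 6 bases, gave 0.42 and 0.43 and was not called (adjusted p = 0.203). RPL12, whose run is also 6 bases, gave -0.77 and -1.99. RPL36AL had a run of 3 bases.

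A run was scored where the first 5 transcribed bases were C followed by 4 bases that are each C or T, on the strand of the gene. It was present in 33 of 47 ribosomal protein genes with a window (70.2%), in 537 of 10356 tested genes (5.19%) and in 1104 of all 27305 windows (4.04%). In replicate 2 the median of the ribosomal protein genes was -0.59 with the run and -0.70 without it. The 504 other genes with the run had a median of -0.04 and the 9805 without it -0.01. Medians with and without the run thus lay close together, within the family and outside it. Annotated starts can be off by some bases, so these counts describe the annotation. The list of 16 other oligopyrimidine mRNAs, mostly translation factors, had 0 called and a median of -0.09 (-0.33 after cyclic loess, -0.14 after quantile normalization, -0.040 in the reduced set of arrays and 0.012 with the IgG IP array of miR-21 in replicate 2 left out), and its largest falls in replicate 2 were in EIF3L (-1.30) and EEF1D (-1.27).

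Nuclear-encoded subunits of the respiratory chain were also lower mainly in replicate 2. Of 76 oxidative phosphorylation genes, 1 rose and 2 fell over both replicates, with a median of -0.43. The replicate medians were 0.08, which median centring brought to just below 0, and -0.89. In replicate 2, 46 of the 76 were called lower and 6 higher, against 17.9% and 15.7% of all genes. By the test of the difference 36 were lower there than in replicate 1, against 7.22% of all genes. NDUFB11, an accessory subunit of complex I, was at 10.55, 10.58, 11.58 and 11.30 in Total RNA and at 9.41, 9.41, 8.06 and 8.97 in IgG IP, a fall of 2.04 ± 0.39 (adjusted p = 0.0374). NDUFS7, a core subunit of complex I, fell by 1.67 ± 0.31. SDHC, described above, was the member that rose.

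Messages of the mitochondrial ribosome had a median of 0.22 in replicate 1 and -0.28 in replicate 2 over 76 genes. The first was 0.13 after median centring and 0.33 after cyclic loess, and the second was -0.47 after cyclic loess and -0.49 after quantile normalization. MRPS12 fell by 1.36 ± 0.25 and was the only called member, of 0 higher and 1 lower. In contrast, the 7 protein genes of the mitochondrial genome on the array had a median of 0.78, or 0.52 after cyclic loess. Of these 7, 6 had all 4 matched differences above 0, against 12.5% of all genes. None was called over both replicates. ND6, the complex I subunit encoded on the light strand, came closest. Its Total RNA levels were 8.23, 8.61, 9.27 and 8.94 and its IgG IP levels 9.60, 10.01, 12.70 and 12.33 (difference 2.40 ± 0.51, adjusted p = 0.0527). It was called in replicate 1 (1.39) and in replicate 2 (3.41). ND2, ATP6 and COX2 had differences of 0.86, 0.84 and 0.78, with 0.42, 0.29 and 0.16 in replicate 1 and 1.30, 1.38 and 1.41 in replicate 2. The mitochondrially encoded list and the TCEAL and BEX family were added after their values had been seen.

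Members of the TCEAL and BEX family, small proteins encoded on the X chromosome, had a median of 0.80 over 11 genes. In 9 of them all 4 matched differences were above 0, against 12.5% of all genes, and none was called over both replicates. TCEAL3 was at 7.68, 7.64, 8.76 and 8.38 in Total RNA and at 8.68, 8.76, 11.89 and 11.70 in IgG IP, a difference of 2.14 ± 0.51 (adjusted p = 0.0674). TCEAL4 gave 2.10 and BEX5 1.85. BEX1, BEX3, BEX4 and TCEAL1 lay between 0.11 and 0.31, so the family was not uniform.

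Components of the spliceosome were mixed. Of 31 Sm and LSm genes tested, a list also added after its values had been seen, 2 rose and 0 fell. SNRPF, the Sm F protein, went from 11.42, 11.34, 12.20 and 12.13 in Total RNA to 12.998, 12.97, 13.67 and 13.34 in IgG IP, a rise of 1.47 ± 0.21 (adjusted p = 0.0144). SNRPD1, the Sm D1 protein, rose by 1.10 ± 0.23. The groups of SNRPF did not overlap. In replicate 2 alone, however, SNRPD2 and LSM7 were called lower, at -2.19 and -2.16, and the list split into 8 higher and 11 lower, against 15.7% and 17.9% of all genes. The pattern of names also took in LSM14A and LSM14B, translational repressors of processing bodies, which gave 1.66 and 2.83 in replicate 2. Of 32 hnRNP and SR protein genes, 0 were called over both replicates, and 16 were called higher and 2 lower in replicate 2, against 15.7% and 17.9% of all genes. HNRNPH3 led these, at 0.77 in replicate 1 and 2.48 in replicate 2. The lower ones were HNRNPUL1 (-0.78) and HNRNPD-DT (-1.62), a noncoding divergent transcript that the pattern of names took in.

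Other lists held few calls over both replicates. Replication-dependent histone genes, whose mRNAs end in a stem loop and not in a poly(A) tail, had a median of -0.42 over 22 genes. H4C8 was called higher (1.24 ± 0.21, adjusted p = 0.0262), and none was called lower, while 11 of the 22 were called lower in replicate 2 alone, against 17.9% of all genes. Glycolysis genes had a median of -0.36 over 17 genes with ENO1 (-1.25) and GAPDH called lower. GAPDH, often used as a reference transcript, was at 13.83, 13.79, 13.88 and 13.78 in Total RNA and at 13.06, 13.17, 11.94 and 12.46 in IgG IP, a fall of 1.16 ± 0.23 (adjusted p = 0.0453). ACTB, another common reference, differed by -0.04 ± 0.23 (adjusted p = 0.950), with matched differences of -0.06, -0.06, -0.44 and 0.41.

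T cell identity genes had 0 calls of 21 and a median of -0.31. In the T cell activation list ICOS, a costimulatory receptor, rose by 1.26 ± 0.24 (adjusted p = 0.0377) and CD69, an early activation antigen, gave 1.74 without passing the test (adjusted p = 0.205). In the list of secretory pathway genes SSR4, of the translocon-associated complex, fell by 1.99 and TMED9, a cargo receptor, rose by 1.08. Of the 42 proteasome genes listed PSMB3 alone was called, at -1.75. SEM1, the proteasome lid subunit that rose by 1.57, was not in that list. Among the 29 genes of RISC and miRNA biogenesis 0 were called, with a median of -0.31. AGO2 itself was at 7.03, 7.25, 7.85 and 7.79 in Total RNA and at 6.46, 6.45, 6.63 and 7.52 in IgG IP. All 4 matched differences of AGO2 were below 0, and their mean of -0.72 ± 0.23 did not pass the test (adjusted p = 0.128).

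The replicates were also read singly and against each other. Replicate 1 gave 509 calls (3.97%), 115 higher (0.897%) and 394 lower (3.07%), and replicate 2 gave 4310 (33.6%), 2017 higher and 2293 lower. Within a replicate the spread came from the constructs alone. The split of replicate 1 became 199 and 252 after cyclic loess, 213 and 290 after quantile normalization and 73 and 496 after median centring. The overall median difference, -0.05 as deposited, was then 0.06, 0.07 and -0.14 in turn. The SD of the matched difference over genes was 0.487 and 0.497 in replicate 1 and 0.931 and 0.821 in replicate 2. Across genes, which are not independent replicates and share each pair's arrays, the matched differences of the constructs correlated at 0.738 in replicate 1 and 0.696 in replicate 2. Between replicates the correlations ran from 0.115 to 0.264.

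Genes called lower in both replicates numbered 198, which is 50.3% of those called lower in replicate 1 and 8.63% of those in replicate 2. Genes called higher in both numbered 63, or 54.8% and 3.12%. Opposite calls were also seen, with 41 genes lower in replicate 1 and higher in replicate 2, and 2 the other way round. The test of the difference between replicates called 2271 genes (17.7%), of which 1345 (10.5%) were higher and 926 (7.22%) lower in replicate 2. Which direction was the more frequent changed with the scaling: the counts were 928 and 1459 after cyclic loess, 942 and 1336 after quantile normalization and 1670 and 626 after median centring. The overall median, -0.02 as deposited, was then -0.13, -0.12 and 0.14 in turn.

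These counts also rested on single arrays. For replicate 1 the count was 4 or 1 with its Total RNA array left out, control vector first and miR-21 second, and 0 or 18 with its IgG IP array left out. It was 978 without either of its AGO2 IP arrays and 221 without either Total RNA array of replicate 2. For replicate 2 the count was 2020 or 2692 with its Total RNA array left out, and 2650 with its IgG IP array of the control vector left out. The count for the difference between replicates was 601 or 538 with a Total RNA array of replicate 1 left out and 840 or 811 with an IgG IP array of replicate 1 left out. It was 487 or 1015 with a Total RNA array of replicate 2 left out, and 973 with the IgG IP array of the control vector left out there. The reduced set of arrays gave 1502, 5470 and 4609 for replicate 1, replicate 2 and their difference.

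The gene with the largest gap was PPP3R1, the regulatory subunit of calcineurin. Its Total RNA levels of 8.79, 8.56, 7.27 and 7.14 compared with IgG IP levels of 8.44, 8.40, 11.14 and 11.32. It stood at -0.26 in replicate 1 and 4.02 in replicate 2, a difference between replicates of 4.28 (adjusted p = 0.000249). PBX2, a homeobox transcription factor, was at 8.04, 7.89, 6.22 and 6.43 in Total RNA and at 8.29, 8.48, 10.06 and 10.40 in IgG IP, which gave 0.42 in replicate 1 and 3.91 in replicate 2. The opposite was seen in TMEFF2, a transmembrane protein with follistatin domains. It was at 5.34 and 5.11 in Total RNA and 8.99 and 8.37 in IgG IP of replicate 1, but at 6.55, 6.12, 6.17 and 6.21 in replicate 2. TMEFF2 rose by 3.45 in replicate 1, the largest rise there, and gave -0.14 in replicate 2. Its other probe sets, both below the limit of 4.02, gave 0.20 and 0.11 in replicate 1.

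Besides the genes shared with the list over both replicates, replicate 1 was led by TMEFF2, by RPL27A (2.09), a ribosomal protein, and by the falls of ZBTB37 (-2.62), a zinc finger protein, and KIAA1958 (-2.26). ZBTB37 gave -0.10 in replicate 2, whereas KIAA1958 fell there too (-1.71). Replicate 2 was led by TAF15, PPP3R1, PBX2, SIPA1L1 (3.52), a GTPase activator for Rap, and ND6. Other probe sets of SIPA1L1 gave -0.45 and -1.13 there. Its largest falls were in LOC100190986, FTX, MIF, PABPC1L (-3.42), a poly(A)-binding protein relative, and RPS16P5. FTX, LOC100190986 and RPS16P5 were among the 5 largest falls of each replicate, and no rise was among the 5 largest of both.

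Gene lists differed between replicates in the same pairs of arrays. Of 365 ZNF genes, 0 rose and 26 fell in replicate 1, against 0.897% and 3.07% of all genes. In replicate 2, 109 rose and 33 fell, against 15.7% and 17.9% of all genes. By the test of the difference 96 were higher and 8 lower in replicate 2, against 10.5% and 7.22%. Their medians were -0.20 and 0.35, and -0.05 and 0.34 after cyclic loess. Over both replicates the median of 0.07 became -0.06 with the IgG IP array of miR-21 in replicate 2 left out. The 8 ribosomal protein pseudogenes had medians of 0.19 and -1.03, with 6 called lower in replicate 2, against 17.9% of all genes.

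**Figure D4:**
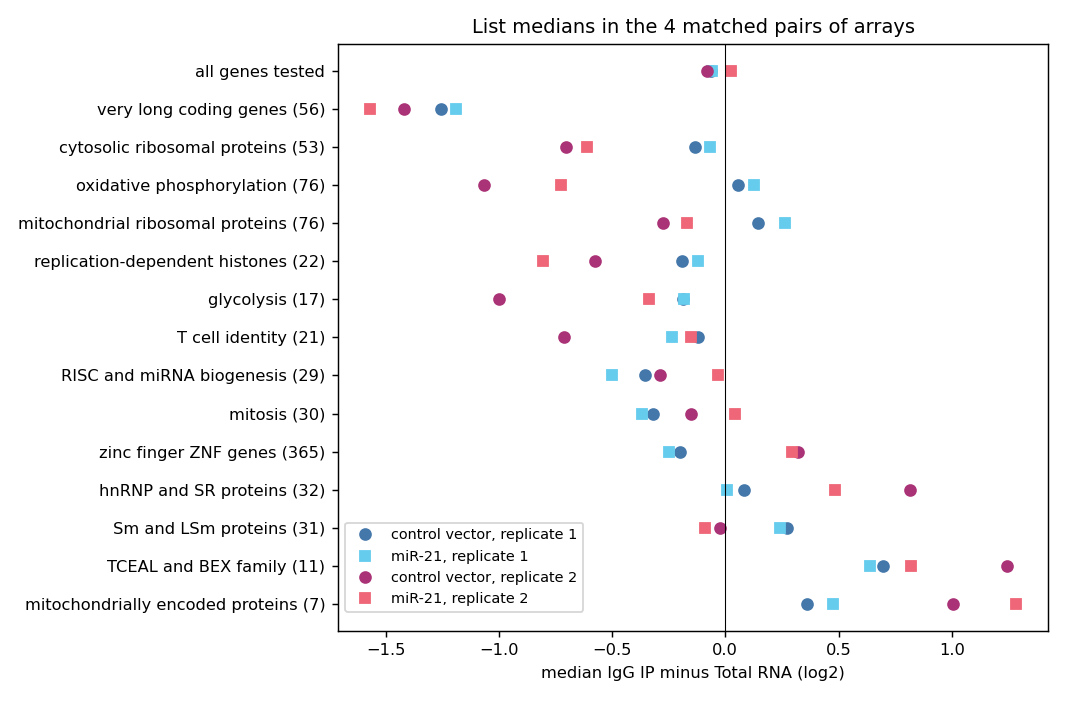
Median IgG IP minus Total RNA difference (log2) of 14 gene lists, with the number of genes tested in brackets, in each of the 4 matched pairs of arrays; the top row gives all genes tested. Very long genes lie between -1.57 and -1.19 in all 4 pairs, whereas oxidative phosphorylation and ZNF genes lie on opposite sides of 0 in replicate 1 and replicate 2.

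Control probe sets moved with the fraction in a way that differed by replicate, and their part in the results was not tested. The poly(A) spike-in dap, which is added to RNA before labelling, stood at 7.98 and 8.32 in Total RNA and 2.48 and 2.28 in IgG IP of replicate 1. In replicate 2 it stood at 6.11 and 7.09 in Total RNA and 7.45 and 5.69 in IgG IP. The spike-ins lys, phe and thr were likewise lower in IgG IP of replicate 1, by 2.15 to 2.97, and within 0.81 of Total RNA in replicate 2. In replicate 1 the level of the spike-ins thus set the fractions apart, and in replicate 2 it did not.

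The hybridization control bioB was higher in IgG IP than in Total RNA by 3.74 and 2.69 in replicate 1 and by 1.04 and 0.49 in replicate 2. In replicate 2 the 5′ probe set of 28S ribosomal RNA was at 14.06 and 14.10 in Total RNA and 9.99 and 9.71 in IgG IP. The matched differences there were -4.07 and -4.39, against 0.15 and -0.53 in replicate 1. In replicate 1 it was at 9.70 and 9.99 in Total RNA and 9.85 and 9.46 in IgG IP. Total RNA of replicate 2 thus stood apart, while IgG IP of replicate 2 lay close to the levels of replicate 1. The 3′ probe set of 18S ribosomal RNA gave -0.64 and -0.71 in replicate 1 and -2.57 and -2.01 in replicate 2. The middle probe set of 28S gave -0.63, -0.47, -1.91 and -2.43 in the 4 pairs. The 5′ and middle probe sets of 18S were higher in IgG IP of replicate 1, by 1.06 to 1.49, and gave -0.55 to 0.07 in replicate 2. The 3′ probe set of 28S gave 0.48, 0.58, 0.06 and -0.24. The probe sets of ribosomal RNA thus did not move together. The 3′ minus 5′ signal of ACTB, a measure of RNA integrity and of labelling length, was higher in IgG IP of replicate 1 by 0.80 and 0.74, and in replicate 2 it differed by -0.96 and 0.30. That of GAPDH was higher in IgG IP in all 4 pairs, by 0.24, 0.30, 0.43 and 1.03.

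**Figure D5:**
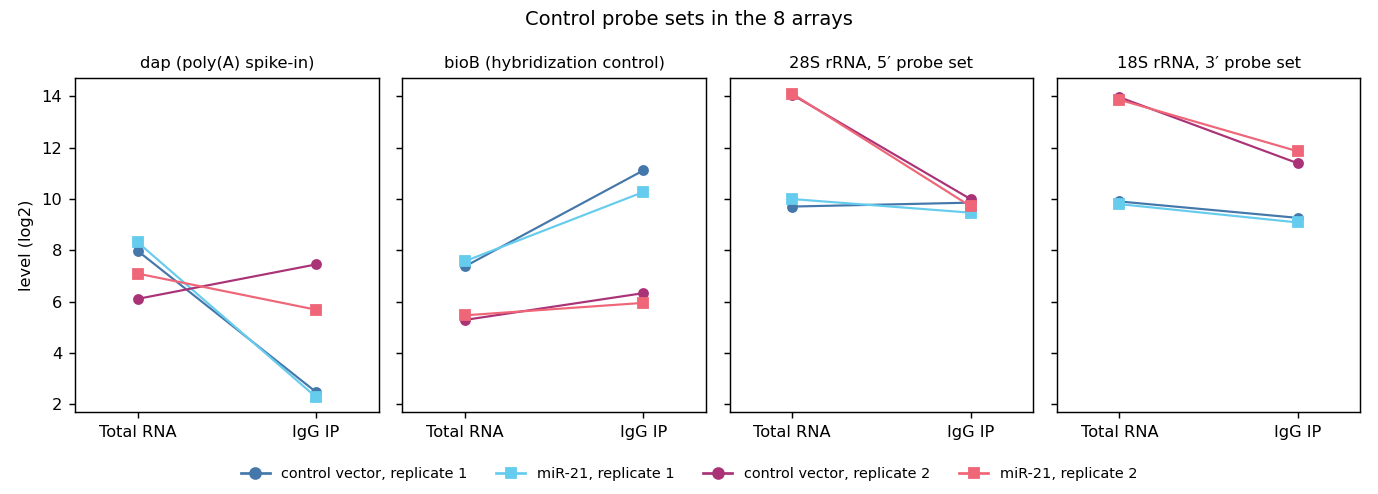
Log2 level of 4 control probe sets in Total RNA and IgG IP, with lines joining the matched arrays of 1 construct and 1 replicate number. The spike-in dap falls to 2.48 and 2.28 in IgG IP of replicate 1. The 28S 5′ probe set is lower by 4.07 and 4.39 in IgG IP of replicate 2, where Total RNA stands at 14.06 and 14.10, above all other arrays shown.

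The tested genes were also split into 5 groups of equal size by their mean over the 12 arrays. The medians over both replicates ran from -0.17 in the middle group to 0.09 in the lowest. The middle group, with levels from 6.45 to 7.76, held 71 of the 208 genes that fell, and the highest group held 20 of the 38 that rose. The mean includes the IP arrays, so a gene's own rise or fall enters the level by which it was grouped.

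The construct made no difference that could be called. The miR-21 difference minus the control vector difference gave 0 calls, with an unadjusted p under 0.05 in 23 genes, and 0 in every alternative run for it. Differences between replicates enter the spread of these fits. The 23 of 12824 genes are a smaller share than a threshold of 0.05 gives without any difference. The test was thus too strict to call much, and the 0 does not show that the constructs were alike. Taken alone, with 2 arrays against 2, each construct gave 2 genes lower (0.0156%) and 0 higher, with an unadjusted p under 0.05 in 1512 genes for the control vector and 1103 for miR-21.

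AGO2 IP was set beside IgG IP at the same genes. Over all genes AGO2 IP against Total RNA gave 604 higher (4.71%) and 1447 lower (11.3%). All 24 leading genes had a difference from Total RNA in AGO2 IP of the same direction, from 1.11 to 3.003 for the rises and from -3.76 to -1.98 for the falls. Both differences use the same Total RNA arrays, so they are given side by side only. AGO2 IP minus IgG IP, which does not use those arrays, lay between -0.58 and 0.17 at these genes and was called at none of them. Over all genes it was called at 0, with an unadjusted p under 0.05 in 663. In replicate 1 alone it was called at 2203 genes (17.2%), with 1210 higher (9.44%) and 993 lower (7.74%), among them 4 of the 24, which were NDUFAF2 (-0.70), SEM1 (-0.88), MIF (-0.66) and GABPB1-AS1 (-1.06), all lower in AGO2 IP. In replicate 2 alone it was called at 0, with an unadjusted p under 0.05 in 69. The very long genes had a median of -1.42 in AGO2 IP minus Total RNA beside -1.35 in IgG IP minus Total RNA.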

How the data were processed

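The authors deposited log2 values of 12 Affymetrix arrays, which the submitters' processing notes credit to RMA. No source used here gives the RMA version or says whether all arrays were normalized together. Of 54675 probe sets, 62 were controls, 41091 of the 42898 listed ones had 1 gene symbol, 1801 had several and 11777 were not listed. For each gene the probe set of highest mean (12 arrays) was taken. This mean includes the IP arrays, so the choice favours probe sets that are high in IP. The number of arrays limits the precision.

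The limma package (3.58.1, in R 4.3.3) fitted a mean for each of 6 groups and the replicate number as a block (5 residual and 4.108 prior degrees of freedom), because levels differ by replicate number. Single replicates used a mean per fraction and replicate plus the construct (prior 4.533). Same-numbered arrays deviated together in all 15 pairs of groups (correlation 0.468 to 0.873). Tests were two-sided with Benjamini-Hochberg adjustment over 12824 genes, and the model was tested on simulated data. Figures used Python 3.11.15, pandas 2.3.3 and matplotlib 3.10.9.

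The 29 gene lists, 4 added ones and the genes compared were chosen with earlier results of these data known. Named genes were the 12 largest rises and falls among called genes with 4 matched differences of 1 sign, 5 each way for each replicate and for their difference, up to 4 members per list and some genes always named. Further members were named for contrast after their values were seen. Alternatives were 3 scalings, 2 filters, the mean of probe sets, each other probe set, an intensity trend, the 8 arrays alone, no block and arrays left out.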

Additional observations from a re-analysis of the deposited data

Results flagged for a closer look

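The difference between IgG IP and Total RNA itself differed between replicate 1 and replicate 2 at many genes, by limma's test of that difference. It was higher in replicate 2 at 1345 genes and lower at 926. Among those higher in replicate 2, the gap was 4.28 for PPP3R1 (from -0.26 to 4.02), 3.48 for PBX2 (from 0.42 to 3.91), 3.33 for SLC12A2-DT (from -0.38 to 2.95), 3.16 for TAF15 (from 1.60 to 4.75) and 3.04 for SNX16, a sorting nexin (from -0.44 to 2.60). Among those lower in replicate 2, it was -3.60 for TMEFF2 (from 3.45 to -0.14), -2.66 for HLA-F-AS1 (from 0.52 to -2.15), -2.63 for USB1, an exonuclease that trims U6 RNA (from 1.40 to -1.23), -2.54 for OST4, a small subunit of the oligosaccharyltransferase (from -0.23 to -2.77), and -2.47 for PABPC1L (from -0.95 to -3.42). Replicate number was the only label that separated these arrays, and what it stands for is not stated in the labels.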

How the results depend on the processing

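Calls over both replicates (246) became 130 with the mean of a gene's probe sets, 51 in the reduced set of arrays and 0 with no replicate block, and ran from 3 to 563 with 1 array left out. For replicate 1 (509) it became 259 with the mean of probe sets, 1502 in the reduced set and 911 with the 8 arrays alone, and ran from 0 to 978 with 1 array left out. Replicate 2 ran from 2020 to 4802 and the difference between replicates from 487 to 2891 with 1 array left out, and the reduced set gave 5470 and 4609. The test of constructs and of AGO2 IP against IgG IP gave 0 in every alternative run, each with differences between replicates in its spread. Signs turned with the probe set only. With the mean of probe sets TAF15 was -0.32 over both replicates and -0.054 in replicate 2. With another probe set, over both replicates, TAF15 was -2.75, -1.50 and -0.20, APP -0.17, PIN4 -0.42, SDHC -0.27 and -0.59, UBR4 0.36, 0.20 and 0.076, GABPB1-AS1 0.13, HERC2 0.13 and ZNF573 0.29. In replicate 1 PIN4 was -0.17 and ZBTB37 0.59. In replicate 2 TAF15 was -2.73, -1.85 and -0.39 and SIPA1L1 -0.45 and -1.13. For the difference between replicates PBX2 was -0.24, SLC12A2-DT -0.48, -0.49 and -1.12, TAF15 -0.70 and -0.39 and HLA-F-AS1 0.25. Many of these probe sets lay below 4.02. With 1 array left out, no sign turned among the 24 leading genes over both replicates or the 10 of each other comparison. These were the largest differences among called genes, and except for the difference between replicates they also had matched differences of 1 sign. Their signs could therefore hardly turn, and this does not measure how stable a direction is. Over both replicates 135 such values missed the threshold and 153 passed it. The causes were not tested. With 2 replicates and constructs as the only spread within a replicate, single-replicate counts are the less certain ones.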
